A study of Mus musculus with 18 samples.

Results

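Wild-type footpad skin was compared between postnatal day 31 (P31) and postnatal day 10 (P10), the outermost ages of the study. Of 42006 transcript probes on the array, 24291 (57.8%) gave a skin signal well above background on at least 3 of the 6 arrays of these ages, which was the rule for a probe to be included. Of these, 24274 could be tested, and 17 with missing values were left out. Just inside the rule, 904 probes were above background on exactly 3 arrays, with a median log2 Cy3 level of 6.73, and just outside it 1073 probes were on exactly 2, with 6.62. The skin was the hairless pad of the fore foot of wild-type C57BL/6 mice, littermates of FoxA1 knockouts, with 3 arrays of separate animals at P10 and 3 at P31. Arrays of wild-type skin at P14 (3) and of FoxA1 knockout skin at P10 and P31 (3 each) served as further readings and were not used to choose the probes. How the FoxA1 allele was deleted, and in which cells, is not given in the sources used here, and the sexes are labelled only as mixed. On every array the skin RNA carried the green dye Cy3 and a common reference carried the red dye Cy5. That reference was RNA pooled from 11 mouse cell lines, with RNA of 129ES embryonic stem cells added. A value below is therefore the log2 ratio of skin over reference, where 0 means as much signal as in the reference and a difference of 1 means a doubling, and a change is always P31 minus P10.

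In mice, eccrine sweat glands lie in the pads of the paws and hardly anywhere else in the skin. They bud from the epidermis shortly before birth, and their ducts and secretory coils lengthen and begin to secrete during the first weeks of life. Over the same weeks the dermis turns from a growing tissue, in which fibroblasts lay down collagen, laminin and other matrix, into a mature one with fewer dividing cells and with its own fat cells, vessels and nerves. FoxA1 is a forkhead transcription factor expressed in the secretory coil.

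The files hold the 60-base sequence of each probe and an identifier, and a gene name for 0 probes. A probe was therefore placed only where at least 30 of its bases matched, without a mismatch, a window around a RefSeq gene start. Windows ran from 250 bases before the start to 50 after (GRCm38.p6) and were searched on both strands. A placed probe took the name of the single gene whose span held the match on the same strand, also where the window was another gene's. Among the genes below with a changed probe, Retn, Rpl38, Fau, Mif, Olfr521 and Ntng1 matched a window of their own. For Fau only the dimmer probe changed. The other genes with a changed probe were named by their span alone. Because these windows cover little of most transcripts, 294 probes of 287 genes were placed, and 141 probes of 136 genes were among those tested. Whether a match lies in an exon, an intron or an untranslated region was not analysed here. Of 802 genes in 23 lists for skin layers, gland, muscle, fat, nerve, vessel and other cell types, 7 were placed and 3 were tested, namely Retn, Pax7 and Ndufa9. No keratinocyte or sweat gland marker was among them, so the labelled tissue was not checked against its markers, and Foxa1, Best2 and Slc12a2 were not analysed here.

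The probe stretches on which the named results rest are shown first, 30 bases each, from 5′ to 3′. In Rpl38, Fau and Retn the capitals are bases at or after the annotated start of transcription. In the last 2 sequences, those of the probes with the largest decreases, the capitals mark a run of 9 bases that both share. The sequences of placed probes are those of RefSeq GRCm38.p6 and of the array alike.
Retn Z00023450-1 (chr8:3655771-3655819, plus strand): TCAACAAGAAGGAGCTGTGGGACAGGAGCT
Rpl38 Z00032009-1 (chr11:114668538-114668597, plus strand): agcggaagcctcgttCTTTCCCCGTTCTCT
Fau Z00064043-1 (chr19:6057909-6057968, plus strand): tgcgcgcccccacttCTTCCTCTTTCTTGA
C1qtnf3 Z00024971-1 (chr15:10978653-10978712, plus strand): ttctgctctttgaaactaagtgacaaggaa
Lamb2 Z00022255-1 (chr9:108490426-108490484, plus strand): tccctagggcctagccttgtcgccaagcac
Z00023589-1, not placed: gaatggcagagcactctccctcaaattcag
Z00022843-1, not placed: atcatttgtaaagccttgctccacagcttt
Z00034035-1, not placed: tacacATATTGTCTtgtgttgctggtgcca
Z00074216-1, not placed: gagtgaacgctatgcttacatATATTGTCT

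Between 55.4% and 59.6% of all probes were well above background, and 0 probes were saturated in Cy3, the skin channel. Saturation of the reference channel was not analysed here. The median spot had a skin signal of 145.6 to 176.5 at P10, where the local background was 48.5 to 52. At P31 it was 115 to 125.2, with a background of 45 to 47, so every P31 array was dimmer than every P10 array. Whether this bears on the counts of decreases and of probes lost from detection was not tested. Weights that limma estimated from how far each array lay from its group ran from 0.559 to 3.61 at P10 and from 0.34 to 0.582 at P31, and a fit with them gave 3427 passing probes in place of the 3307 below. Arrays of the same age correlated at 0.952 to 0.986 over the tested probes and arrays of different ages at 0.909 to 0.951. The median standard deviation (SD) over 3 arrays was 0.142 at P10, 0.156 at P14 and 0.234 at P31, so the P31 arrays varied most. With 1 array per animal, spread between animals and spread between arrays cannot be told apart. The 3 wild-type P10 arrays lay on 1 slide and the 3 wild-type P31 arrays on another, so within the wild type an effect of age and an effect of the slide cannot be told apart. All 18 arrays were scanned on 1 day.

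From P10 to P31, 3307 of the 24274 probes (13.6%) passed an adjusted p of 0.05 and a fold of 1.5 in limma. Signal rose for 1392 of them (5.73% of those tested) and fell for 1915 (7.89%). The median change was 0.78 among the probes that rose and -0.88 among those that fell, against 0.034 over all tested probes. Decreases were also the larger ones. A change of over 2-fold was seen in 365 of the probes that rose (26.2%) and in 721 of those that fell (37.7%), over 4-fold in 31 and 87, and over 8-fold in 4 and 17. Without the fold limit, 5765 probes passed, 2796 of them higher and 2969 lower. At an unadjusted p of 0.05, 8735 probes (36.0%) passed. The 3 arrays of one age lay entirely on one side of the 3 of the other in 1319 of the probes that rose and 1831 of those that fell, against 8456 of all tested probes (34.8%).

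**Figure D1:**
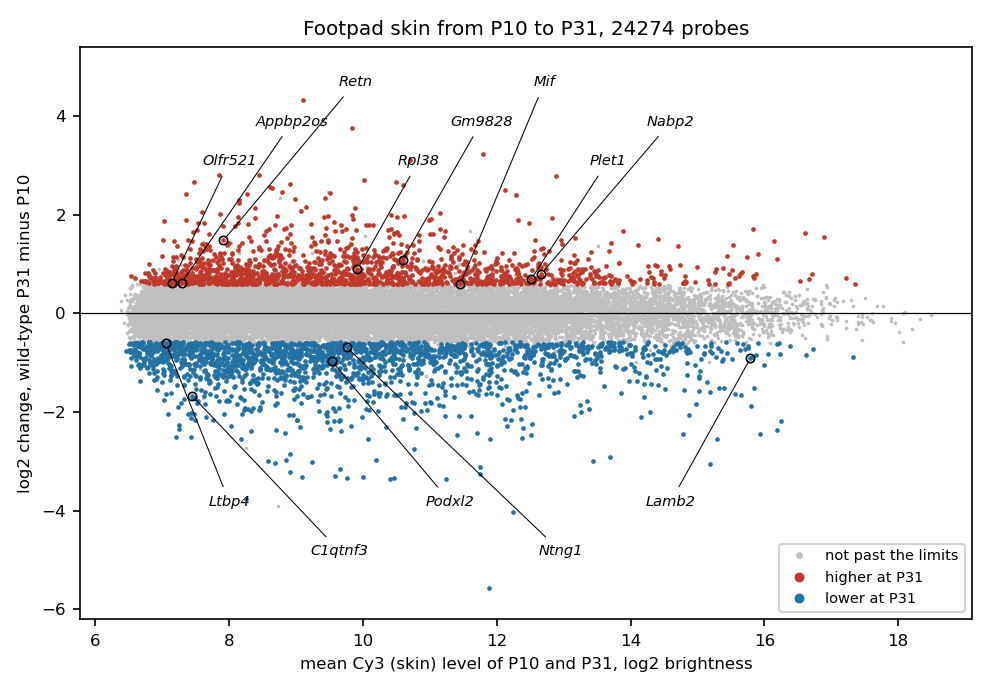
Each point is 1 of 24274 probes, with the mean Cy3 level of P10 and P31 (log2 brightness) on the horizontal axis and the log2 change from P10 to P31 on the vertical axis. Red and blue points passed the limits, 1392 higher and 1915 lower, and circles mark the named genes; changes past the limits occur across the range of brightness, and the lowest point is at -5.56 and the highest at 4.33.

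Most of the changed probes were above background on all 6 arrays, as were most of all tested probes. Of the probes that rose, 1283 were above background on all 6 arrays and 31 on no P10 array. For the latter only a bound can be given, the P31 level over the lowest level measurable at P10; its median was at least 1.55-fold, 9 bounds were over 2-fold, and the highest was at least 7.78-fold higher. Of the probes that fell, 1642 were above background on all 6 arrays and 105 on no P31 array. Their bounds had a median of at least 1.78-fold lower, 31 were over 2-fold, and the highest was at least 13.1-fold lower. Over all 24274 tested probes, 21345 were above background on all 6 arrays, 120 on no P10 array and 201 on no P31 array.

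Set against the cell line reference, the increases and the decreases had different levels at each age. The sets were chosen by the change in this same ratio, so which stands higher at an age follows in part from that choice. The probes that rose had a median log2 ratio of 0.37 at P10 and 1.24 at P31, and the share above the reference went from 61.5% to 78.5%. The probes that fell had a median of 0.95 at P10 and 0.02 at P31, and the share above the reference went from 76.8% to 50.4%. Over all tested probes the median was 0.13 at P10 and 0.12 at P31. At P10, then, the probes that later fell stood well above the reference, and at P31 they stood about level with it. The mean crossed from below the reference to above it in 237 of the probes that rose (17.0%) and the other way in 505 of those that fell (26.4%). The normalized skin level moved likewise, with the median log2 Cy3 level going from 9.12 to 10.17 in the probes that rose. In those that fell it went from 10.12 to 8.94. This level is computed from the same normalized ratios, so it is not a separate reading.

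The largest decreases and increases belong to probes that could not be placed on a gene. Probe Z00034035-1 read 0.84, 0.60 and 0.07 at P10 and -4.50, -5.41 and -5.27 at P31. It stayed above background on all 6 arrays, and its P10 level was brighter than that of 95.7% of the tested probes. The change was -5.56 (SE 0.312, adjusted p 9.86e-09, 3 arrays per age), a 47.3-fold decrease. Probe Z00074216-1 read 0.94, 0.73 and 0.18 at P10 and -3.36, -3.64 and -3.23 at P31, a change of -4.03 (SE 0.271, adjusted p 6.78e-08). These 2 probes share the 9-base run in capitals above and ran in parallel, with array 3 the lowest at P10 in each. At P14 both lay in between, with means of -1.74 and -1.30.

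Of the increases, probe Z00023589-1 read 0.54, 1.05 and 0.85 at P10 and 4.94, 5.10 and 5.39 at P31. The change was 4.33 (SE 0.230, adjusted p 5.61e-09), a 20.1-fold increase. Its P14 values of 0.65, 0.68 and 0.79 overlapped those of P10, and the change from P14 to P31 was 4.44 (adjusted p 2.50e-08), so the signal rose after P14. Probe Z00022843-1 behaved otherwise, rising between each pair of neighbouring ages. It read -1.54, -2.30 and -2.59 at P10, had a mean of -0.68 at P14, and read 1.74, 0.88 and 2.20 at P31, a change of 3.75 (SE 0.346, adjusted p 1.16e-06). None of these 4 calls was lost under the alternative settings run.

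**Figure D2:**
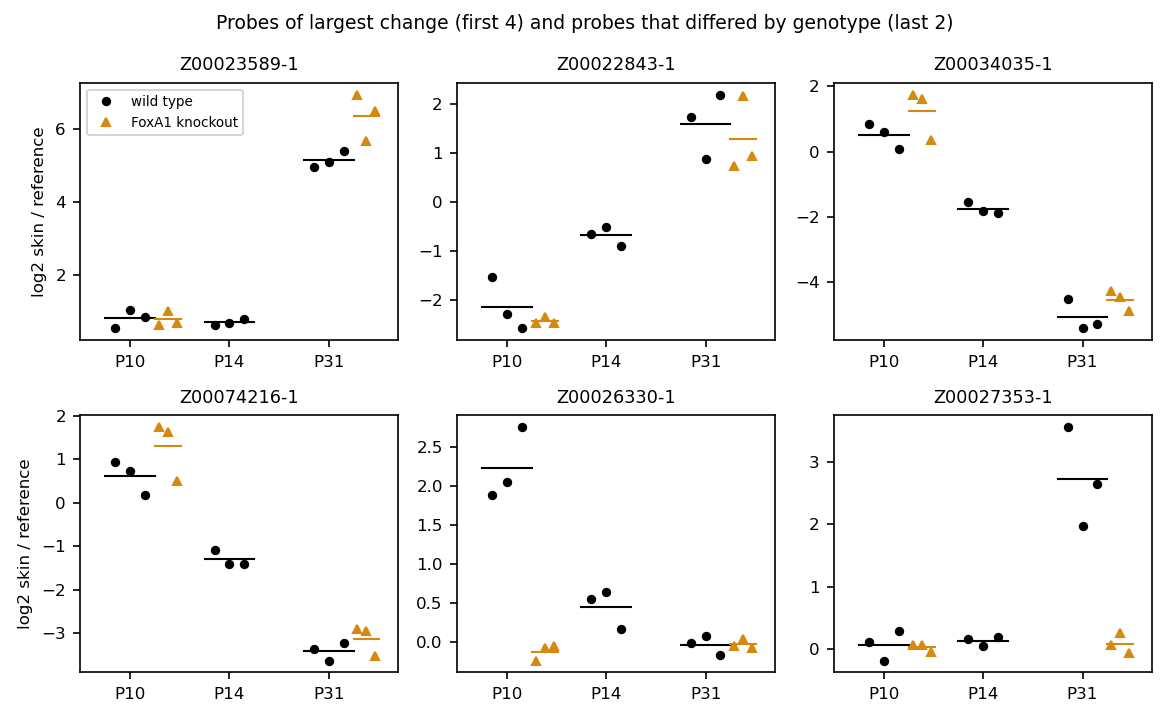
Log2 skin over reference by age for 6 probes, 1 point per array (circles wild type, triangles FoxA1 knockout at P10 and P31) with bars at the group means. Z00023589-1 is flat from P10 to P14 and near 5.14 at P31, Z00034035-1 and Z00074216-1 step down at each age, and the last 2 probes change in the wild type and stay near 0 in the knockout.

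Among the 136 placed genes, 14 passed (10.3%, against 13.6% of all tested probes), 9 of them higher and 5 lower at P31. The median change of the 136 genes was 0.11. Because most probes of the array could not be placed, 3291 of the 3307 changed probes have no gene name here, and the genes below are a sample set by the location of the probes. Their changes are modest beside the extremes above, with the largest at 2.79-fold up and 3.19-fold down.

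Retn, which encodes resistin, a hormone secreted by the white fat cells of mice, had the largest increase among them. It read 0.68, 0.52 and 1.08 at P10 and 2.34, 2.19 and 2.18 at P31. All P31 arrays lay more than a unit above every P10 array, and the change was 1.48 (SE 0.177, adjusted p 1.61e-05), a 2.79-fold increase. Its P14 values of 1.67, 1.64 and 1.60 lay between the ages, with a change of 0.88 from P10 to P14 and 0.60 from P14 to P31, each below an adjusted p of 0.05. From Cy3 alone, without the reference channel, the change was 2.75. In whole skin, more fat cells and more resistin RNA per fat cell cannot be told apart, which holds for every gene here. Retn was the only adipocyte marker tested, so a broader rise of fat cell genes was not tested.

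Of 9 tested genes of ribosomes and translation, 1 passed, Rpl38, a protein of the large ribosomal subunit, a share near the 13.6% of all tested probes. A positive change was seen in 8 of the 9, beside 53.9% of all tested probes, with a median of 0.21. Rpl38 read -0.99, -1.21 and -1.48 at P10 and -0.23, -0.84 and 0.07 at P31. The groups did not overlap, although the P31 arrays spread over nearly a unit, and the change was 0.89 (SE 0.230, adjusted p 0.00971). A second Rpl38 probe, which overlaps the first over most of its length and so is not a separate reading, changed by 0.84 (adjusted p 0.0162). The call was lost without P10 array 3 (adjusted p 0.0504), without P31 array 3 (0.0549) and with the 6 arrays fitted alone (0.0536). Fau, which encodes a ubiquitin-like protein fused to ribosomal protein S30, had probes that disagreed. The probe printed above went from a mean of -1.50 ± 0.200 (SD, n = 3) to -0.69 ± 0.213, a change of 0.80 (adjusted p 4.22e-04), while a brighter Fau probe changed by 0.21 (adjusted p 0.311). Ribosomal protein genes have many processed copies in the genome, so which copy a probe reads is uncertain. Rpl10a had the lowest value of the group, -0.55 (adjusted p 0.0569), which did not pass.

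The printed Rpl38 and Fau probes lie across the start of transcription. They begin at -42 and -38 bases from the annotated start, so most of each probe lies before it. The brighter Fau probe, which did not pass, begins 8 bases after the start. From the annotated start, Rpl38 opens with an unbroken run of 8 pyrimidines (C or T) and Fau with 13. Such a tract is the known mark of ribosomal and translation factor mRNAs. Among 32851 RefSeq start windows of mouse genes, 1.36% open with a run at least as long as that of Rpl38 and 0.329% with one at least as long as that of Fau. The ribosomal gene Rpl10a has a run of 1 base at one annotated start and 0 at the other, Rps27l has 0 at both of its starts, and Tpt1, Mif and Retn have 0. These are descriptions of the reference sequence at the annotated start, which can differ from the start used in skin.

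The other genes that rose have varied roles. Nabp2, a single-strand DNA binding protein of DNA repair, read 0.26, 0.08 and 0.09 at P10 and 0.98, 0.82 and 1.02 at P31. The arrays were tight at both ages, and the change was 0.80 (SE 0.117, adjusted p 1.11e-04). The matched stretch also lies in the start window of Slc39a5 on the same strand. Plet1, a surface protein of placental and epithelial progenitor cells that also marks part of the hair follicle, stood far above the reference already at P10, with 3.65, 3.61 and 3.66, and read 4.30, 4.20 and 4.48 at P31. Its change was 0.69 (SE 0.136, adjusted p 0.00153). Mif, a secreted cytokine with tautomerase activity, read -0.34, -0.41 and -0.54 at P10 and 0.20, 0.03 and 0.26 at P31, so it crossed the reference. The change of 0.60 (SE 0.120, adjusted p 0.00171) is just past the fold limit, and was under it without P10 array 3 (0.54), P31 array 1 (0.58) or P31 array 3 (0.55). The P14 mean of Mif, 0.21, had already reached the level of P31.

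Adk, adenosine kinase, which recycles adenosine to AMP, changed by 0.68 (adjusted p 0.0166). Its lowest P31 array, at -0.39, lay below its highest P10 array, at -0.33, so the ages overlapped. Gm9828, a predicted gene, changed by 1.09 (SE 0.254, adjusted p 0.00504), from a mean of 1.05 ± 0.177 to 2.14 ± 0.611 (SD, n = 3). Appbp2os, an antisense RNA of the Appbp2 locus, changed by 0.62 (SE 0.109, adjusted p 5.67e-04); without background correction the change was 0.55, and without P31 array 3 it was 0.54, both under the fold limit. Olfr521, an olfactory receptor gene, changed by 0.61 (adjusted p 0.0370) near the edge of detection, brighter at P10 than 4.34% of the tested probes, and the call was lost in 10 of 21 other settings, with 0.36 (adjusted p 0.193) without P31 array 3.

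Among the genes that fell, C1qtnf3 had the largest decrease. It encodes CTRP3, a secreted protein of the C1q and tumour necrosis factor family made by cartilage, fat and mesenchymal cells. It read 1.92, 1.78 and 2.13 at P10 and 0.61, 0.04 and 0.15 at P31, with no overlap. The change was -1.67 (SE 0.183, adjusted p 6.53e-06), a 3.19-fold decrease, and it was above background on 1 of 3 P31 arrays. The P14 values of 1.28, 0.92 and 0.96 stood midway. From Cy3 alone, without the reference channel, the change was -4.14, and with an offset of 0 it was -1.97. An antisense gene, Gm34315, overlaps the matched stretch.

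Lamb2 encodes the laminin beta 2 chain of basement membranes. It was among the brightest probes, above 99.2% of the tested probes at P10, and read 1.87, 2.17 and 2.11 at P10 and 1.13, 1.45 and 0.84 at P31. The change of -0.91 (SE 0.219, adjusted p 0.00632) had its full size by P14, with 1.35, 1.22 and 0.71, a change of -0.96 from P10 (adjusted p 0.0138), and from P14 to P31 it changed by 0.05 (adjusted p 0.913). From Cy3 alone it was -0.68 (adjusted p 0.0787) and did not pass. The matched stretch also lies in the start window of Usp19, the next gene on the same strand. Ltbp4, which encodes a matrix protein that binds latent TGF-beta and helps assemble elastic fibres, changed by -0.59 (SE 0.156, adjusted p 0.0108). It read 1.21, 0.95 and 1.06 at P10 and 0.87, 0.26 and 0.31 at P31, was dim, and lost its call in 9 of 21 other settings, among them without P10 array 1 (-0.53), P31 array 2 (-0.49) or P31 array 3 (-0.51).

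In the group of matrix and secreted factors, 3 of 5 tested genes fell (C1qtnf3, Lamb2 and Ltbp4), beside 7.89% of all tested probes, and the group's median was -0.59 beside 0.034. The group was assembled from the placed genes with results known, so its count is a description. Retn and Mif are also secreted, stand in other groups and rose. Its other members, Fam180a at -0.31 (adjusted p 0.311) and Adamts17 at 0.11 (adjusted p 0.589), did not pass.

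Podxl2 and Ntng1 fell late. Podxl2, endoglycan, a sialomucin of the CD34 family, read 2.58, 2.39 and 2.23 at P10, 2.86, 2.58 and 2.76 at P14 and 1.76, 0.92 and 1.62 at P31. The P14 arrays did not lie below those of P10, and the P31 arrays lay below both. The change from P10 to P31 was -0.97 (SE 0.195, adjusted p 0.00179), or -1.66 from Cy3 alone, and that from P14 to P31 was -1.30 (adjusted p 3.95e-04). Ntng1, netrin G1, an axon-guidance protein anchored to the membrane of neurons, read 3.48, 3.25 and 3.71 at P10 and 2.44, 2.97 and 2.97 at P31, a change of -0.69 (SE 0.207, adjusted p 0.0231). Its P14 mean was 3.49, and it changed by -0.70 from P14 to P31 (adjusted p 0.0368). The call was lost without P10 array 1 (adjusted p 0.0524), P10 array 3 (0.100) or P31 array 1 (0.0996), with the 6 arrays alone (0.0593), and with the scanner log ratio (-0.58, adjusted p 0.0514) and the deposited value table (-0.58, under the fold limit).

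**Figure D3:**
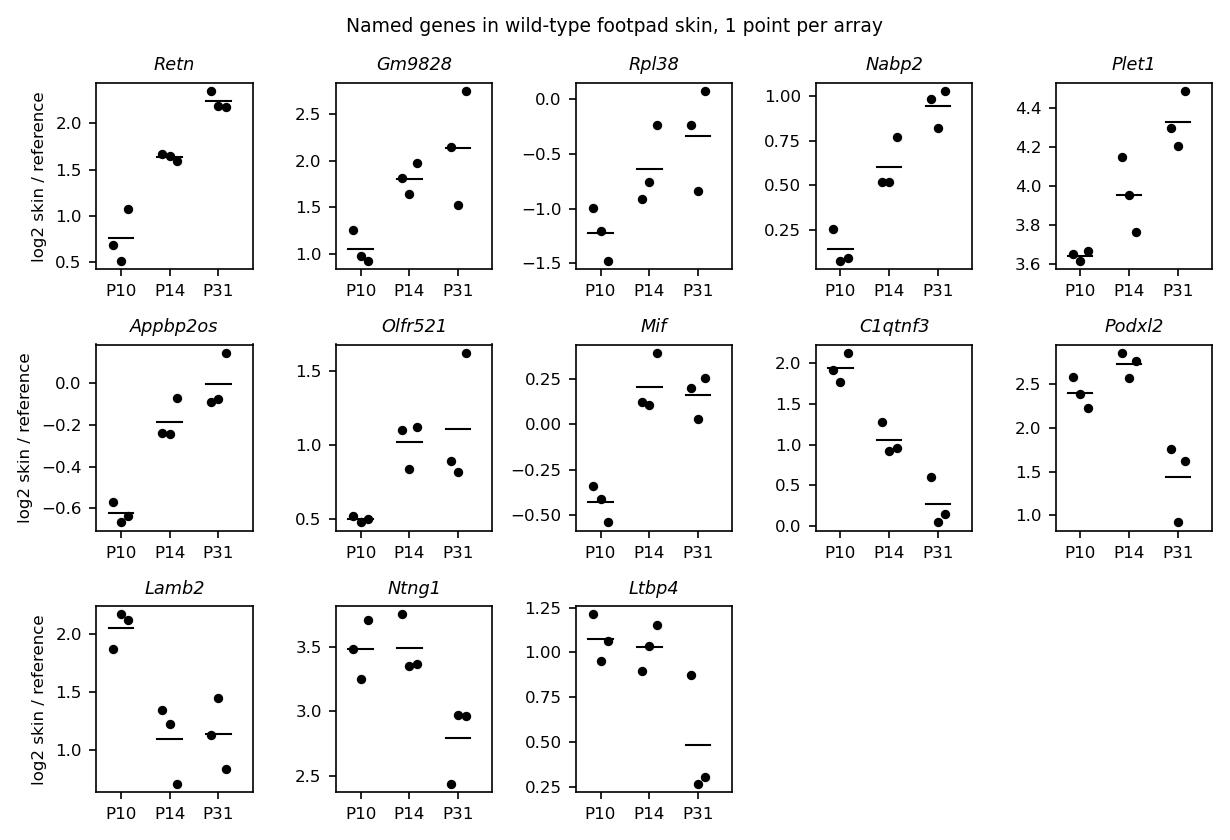
Log2 skin over reference of 13 named genes in wild-type skin at P10, P14 and P31, 1 point per array with a bar at each mean; each panel has its own axis. Retn and C1qtnf3 pass through P14 in steps, Mif and Lamb2 are at their P31 level by P14, and Podxl2 and Ntng1 fall only after P14.

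The remaining groups hold 2 to 9 tested genes each, and their counts are read beside the 13.6% of all tested probes that passed and the 53.9% with a positive change. All 6 tested core histone genes had positive changes, from 0.01 to 0.38 with a median of 0.27, and 0 passed; their near-identical copies make the assignment of each probe uncertain. Of 3 genes of chromosome and nuclear proteins (Aurkc, Gnl3 and Snrpf), changes ran from 0.23 to 0.41 and 0 passed. Of the proliferation list 0 genes were tested, so a change in dividing cells was not tested. Of 7 mitochondrial genes 0 passed, with a median of 0.14, and Hspd1, the mitochondrial chaperonin, changed by 0.57 (adjusted p 0.0396) but stayed under the fold limit. Of 6 genes of immune cells and antigen processing 0 passed, with a median of -0.02, and of 3 genes of the actin cytoskeleton 0 passed, with changes between 0.20 and 0.24. In redox and small-molecule metabolism 2 of 9 genes rose, Mif and Adk, with a group median of 0.16. Of 2 epithelial surface genes, Plet1 rose and S100a7a changed by -0.25 (adjusted p 0.300). Olfactory, vomeronasal and trace amine receptors were placed 31 times and detected often enough to be tested 3 times, and 1 of the 3, Olfr521, rose. Among the placed genes outside these groups, Zbtb8a, a zinc finger gene, at -0.58 (adjusted p 8.33e-04) and Gng5, a G protein gamma subunit, at 0.56 (adjusted p 0.00179) stayed just under the fold limit.

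**Figure D4:**
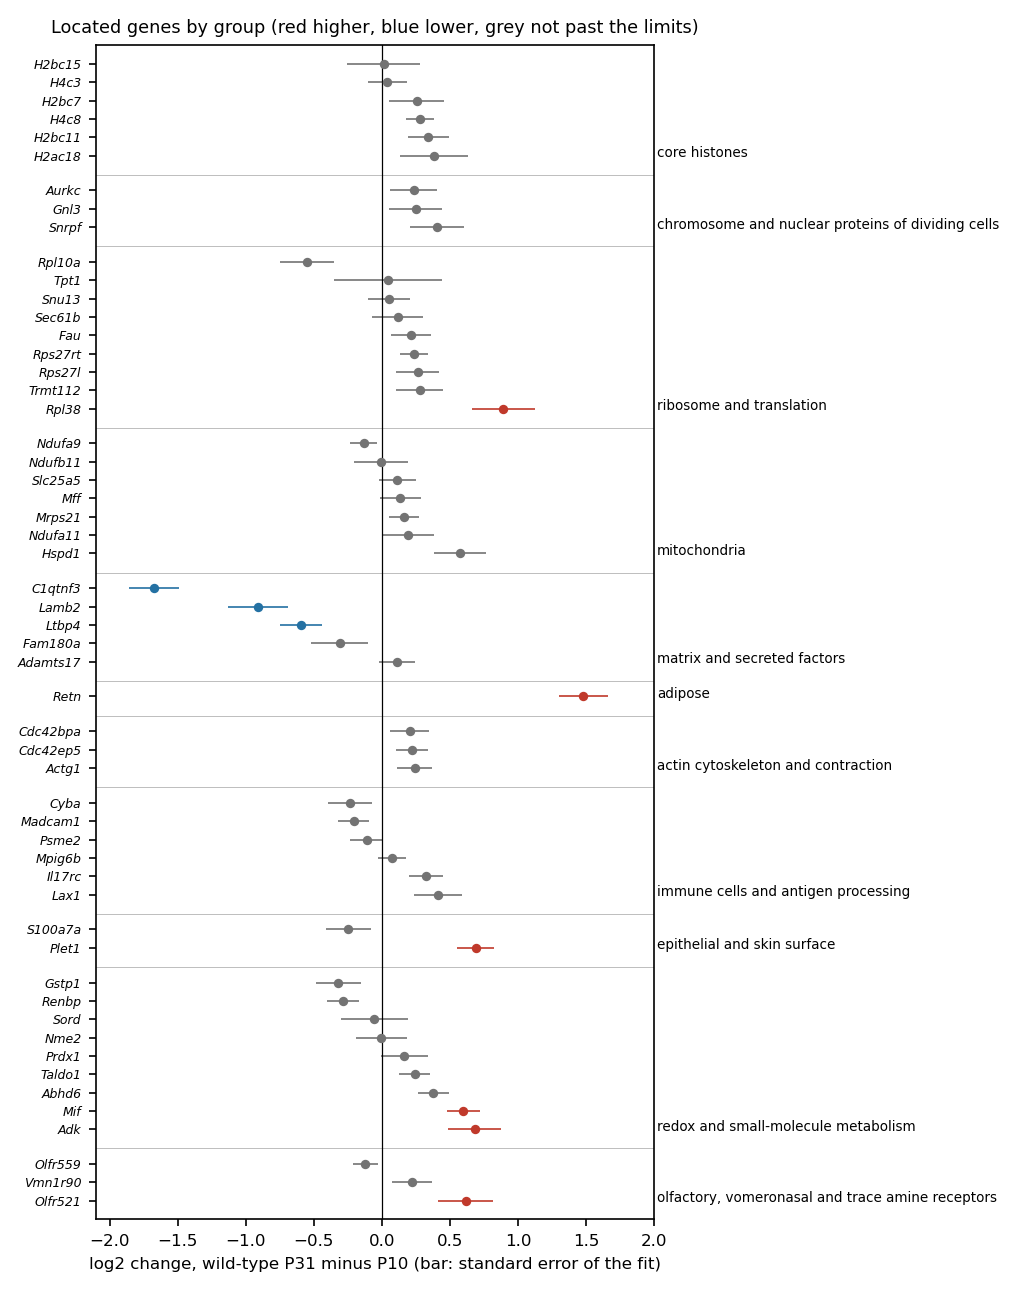
Log2 change from P10 to P31 of placed genes by group, 1 point per gene (its brightest probe) with the standard error of the fit. Matrix and secreted factors hold the lowest values, down to -1.67 for C1qtnf3, Retn the highest at 1.48, and the 6 core histone genes lie between 0.01 and 0.38, none past the limits.

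The day 14 arrays give the timing, and since the comparisons share arrays their values are set side by side only. The wild-type P14 arrays lay on slides that hold no wild-type P10 or P31 array. In both intervals, and for the timing of single genes, age and slide therefore cannot be told apart. Among the probes that rose, the P14 mean lay between those of P10 and P31 in 1189 (85.4%), and a median of 53.8% of the change had been reached by P14. Their median change was 0.46 from P10 to P14 and 0.39 from P14 to P31. Among the probes that fell, 1490 (77.8%) lay between, a median of 40.9% had been reached, and the median changes were -0.40 and -0.55. By the same limits, 383 of the probes that rose (27.5%) passed between P10 and P14 and 338 (24.3%) between P14 and P31. Of those that fell, 565 (29.5%) passed in the earlier interval and 872 (45.5%) in the later one. Over all tested probes 7.65% and 7.88% passed in these intervals in either direction. The counts move with single arrays. The 383 was 139 without P10 array 2, 191 without P10 array 3 and 138 without P14 array 3, and the 565 was 256, 288 and 244; the later counts were 250 to 373 and 739 to 921 over the 9 wild-type arrays left out in turn. For the probes that rose, which interval had more calls therefore differed between settings. For those that fell, the later interval had more calls and the larger median in each of these 9 settings and with array weights (618 and 729). The later interval, P14 to P31, is also much longer than the earlier one, P10 to P14. Change per day was not computed, so more calls in the later interval do not mean a faster fall. The median changes of the probes that fell ran from -0.42 to -0.37 in the earlier interval and from -0.61 to -0.52 in the later one over the arrays left out. Podxl2 and Ntng1 belong to the later kind of decrease and Lamb2 to the earlier.

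The FoxA1 knockout arrays, which share no array with the wild-type comparison, gave nearly the same picture. In the knockout 4927 probes (20.3%) passed between P10 and P31, 2191 higher (9.03%) and 2736 lower (11.3%). Among the 1392 probes that rose in wild-type skin, the knockout value was above 0 for 1377 (98.9%), beside 55.9% of all tested probes, and 1080 (77.6%) passed in the same direction. Among the 1915 that fell, it was below 0 for 1910 (99.7%), and 1642 (85.7%) passed. In neither set did any probe pass in the opposite direction (0 of 3307). Both comparisons use the same estimate of spread for each probe, from the fit over all 18 arrays. The shares that passed in the knockout are therefore not a fully separate reading. The median change in the knockout was 0.85 for the probes that rose in the wild type and -0.97 for those that fell. Knockout arrays 1 and 2 of each age lay on slides that hold no wild-type P10 or P31 array. With these alone, 1376 and 1909 probes had the same sign as in the wild type, and the medians were 0.95 and -1.05.

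Most named genes followed this. Retn changed by 2.28 in the knockout (SE 0.177, adjusted p 1.30e-07), C1qtnf3 by -1.64, Lamb2 by -1.20, Podxl2 by -1.08, Ntng1 by -0.91, Plet1 by 1.02, Gm9828 by 1.05 and Mif by 0.76, each past the limits. Rpl38 passed with 0.69 (adjusted p 0.0277) and Ltbp4 with -0.61 (adjusted p 0.00678). Nabp2 at 0.58 (adjusted p 0.00113) and Appbp2os at 0.52 (adjusted p 0.00149) were under the fold limit, and Olfr521 at 0.49 (adjusted p 0.0722) and Adk at 0.29 (adjusted p 0.254) did not pass. The difference between genotypes was itself tested for every probe, and for the genes named here its adjusted p was 0.844 or higher. With adjustment over all 24274 probes, this does not show that the changes were equal. Retn, for example, changed by 2.28 in the knockout and by 1.48 in the wild type.

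That test of the difference, knockout change minus wild-type change, passed an adjusted p of 0.05 for 2 of 24274 probes (0.00824%), and for 1433 (5.90%) at an unadjusted p of 0.05. Probe Z00026330-1 read 1.89, 2.06 and 2.76 in the wild type at P10 and was above background on 0 of 3 arrays at P31, at least 3.68-fold lower. In the knockout it was above background on no array at P10 or P31. Probe Z00027353-1 went the other way in the wild type, from not above background at P10 to 3.56, 1.98 and 2.65 at P31, at least 5.80-fold higher, and in the knockout it too was above background on no array at either age. Each probe met the rule on background only through the wild-type age at which it is high, and knockout arrays had no part in that rule, so a probe seen in the knockout alone could not be tested; with no such rule, the same 2 probes passed. The count was 14 without wild-type P31 array 3 and 1 without wild-type P10 array 1 or array 2. With slide as a fixed block, which compares 1 knockout with 3 wild-type arrays at each age, 1 probe passed and neither of these did (differences of 2.25 and -2.68, adjusted p 0.405 and 0.999).

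**Figure D5:**
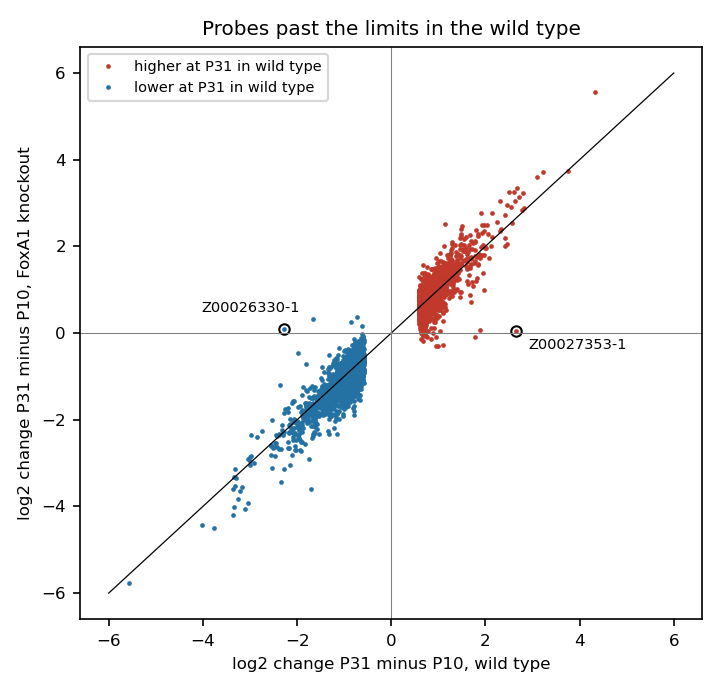
Log2 change from P10 to P31 in the wild type (horizontal) and in the FoxA1 knockout (vertical) for the 3307 probes past the limits in the wild type, with the line of equal change. All but 15 of the probes that rose and 5 of those that fell lie on the same side of 0 in the knockout, and the 2 circled probes, near 0 on the vertical axis, are those whose change differed between genotypes.

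The sequences of the changed probes give an inner check and little contrast. Probes on the array sometimes overlap, and 906 pairs of tested probes share an identical run of at least 20 bases. In 149 pairs at least 1 probe passed; in 105 of these both passed in the same direction, in 0 they passed in opposite directions, and in 41 of the remaining 44 the signs were the same. The median absolute difference in change within the 906 pairs was 0.0646, against a fold limit that lies at a log2 change several times larger. Such pairs read 1 transcript or close copies and are not separate genes; 184 of the 3307 changed probes share a run with another changed probe. The GC content of the probe had a median of 45.0% in probes that rose, 43.3% in those that fell and 45.0% in all tested, and across the tested probes it correlated with the change at 0.04, a description over probes that are not independent. The polyadenylation signal AATAAA stood in the sense strand of 9.48% of the probes that rose, 8.98% of those that fell and 7.93% of all tested, and the motif ATTTA of unstable mRNAs in 7.90%, 8.15% and 7.12%.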

How the data were processed

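The arrays were the NIA Mouse 44K design of Agilent, read in both dyes. Per the file headers, the deposited scanner files were made with Agilent Feature Extraction 9.5.1.1 and hold spot brightness and background as intensity, a log10 ratio of reference over skin, and other values that mark each spot (above background, saturated, outlier). The authors also deposited a value table in log10 units (25030 probes, medians 2.42 to 2.48); its direction and scale followed the scanner ratio with a slope of 1 over 12928 probes (largest difference 2e-04), with a constant per probe that stays unknown.

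Brightness was corrected with normexp (offset 50), normalized within arrays by loess, turned to log2 skin over reference and averaged per probe. limma 3.58.1 in R 4.3.3 fitted 6 group means over 18 arrays on 5 slides (12 residual degrees of freedom), with Benjamini-Hochberg adjustment over 24274 probes; tests are two-sided. A probe passed at an adjusted p under 0.05 and a fold over 1.5, and the genotype test had no fold limit. The pipeline was tested on simulated data. Permuting 3 against 3 arrays cannot give a p below 0.1. Labels name 3 animals per group, called embryos although the ages are postnatal; their number limits the precision.

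Bounds for groups not above background compare, after loess and Aquantile, the brighter group's mean Cy3 level with the lowest level measurable in the dimmer; without dye swaps they are open to dye bias. Named genes were passing probes whose ages did not overlap, up to 12 each way plus up to 4 per list, by the brightest probe; Adk, the dimmer Fau probe and the knockout-different probes fall outside that rule and were named after their values were seen. Members, lists and tests were chosen with earlier results of these data known. Alternatives covered background, normalization, filter, test, slide, weights, replicate number and each array left out.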

Additional observations from a re-analysis of the deposited data

Results flagged for a closer look

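The change from P10 to P31 differed between wild-type and FoxA1 knockout skin for 2 probes by the test of the difference itself in limma. For Z00026330-1 the knockout change exceeded the wild-type change by 2.36 on the log2 scale (SE 0.249, adjusted p 0.00108). Its 3 wild-type P10 arrays averaged 2.24 ± 0.461 (SD, n = 3) and its 3 knockout P10 arrays -0.12 ± 0.102, while at P31 the means were -0.03 and -0.03. Over 19 alternatives its adjusted p ran from 2.38e-05 to 0.267, and it passed in all of these but Cy3 alone. Aquantile and the fit without a fold limit are counted among the alternatives of both probes. Each repeats the main test of the difference and could not change its result. For Z00027353-1 the difference was -2.60 (SE 0.362, adjusted p 0.0227), with wild-type P31 arrays at 2.73 ± 0.794 and knockout P31 arrays at 0.08 ± 0.167. It passed in 16 of 20 alternatives, and not with an offset of 0 (adjusted p 0.858), without variance moderation (0.264) or without wild-type P10 array 1 (0.0738) or array 2 (0.120). With slide as a fixed block, an alternative added after the data were seen, the differences were 2.25 (adjusted p 0.405) and -2.68 (adjusted p 0.999), and neither passed. Both probes entered the test through the single wild-type group in which they are high, under a rule on the wild-type arrays alone, and both also passed with no such rule. Neither probe was placed on a gene, and in 3 of the 4 groups behind each difference the probe was above background on no array, so the fitted differences are not folds.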

How the results depend on the processing

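Over the 22 alternatives, between 39.2% and 48.5% of the passing probes were higher at P31, against 42.1%, and the count moved past 1.5 times only without the fold limit (5765 probes, 2796 higher and 2969 lower). Aquantile leaves the log ratios as they are and gave the same 3307 probes. Dropping the fold limit only loosens the rule of the same fit. Neither alternative could remove a call, so calls kept in them are no sign of stability. Leaving out each of the 6 arrays gave 2962 to 3844 probes, and the 6 arrays fitted alone gave 2594, of which 2570 were among the 3307. The deposited value table gave 2678 of 15620 probes, Cy3 alone 4095, and slide as a random effect 3320; slide as a fixed block could not be fitted for age, because P10 shares no slide with P31. The genotype by age count of 2 was 1 with an offset of 0, with Cy3 alone, without variance moderation, with a mean log10 Cy3 signal over 2.0 and with slide as a fixed block, 0 with probes above background on all 6 arrays (1201 at an unadjusted p of 0.05, and a filter that leaves both probes out), and ran from 1 to 14 over the arrays left out. With the replicate block, that is, the replicate number of the labels as a block, 3350 probes passed (1410 higher, 1940 lower) and the genotype count was 2. Same-numbered P10 and P31 arrays correlated in their deviations at 0.646, 0.214 and -0.163, and differently numbered ones at -0.649 to 0.599. With 3 arrays per age, these values cannot decide whether the numbers pair the animals. Olfr521 alone among the named genes lost its call under the block (adjusted p 0.0510). Of 17 named genes and probes, 10 kept their call in every alternative run and 0 reversed; the other 7 lost it in the settings named beside their values (Olfr521 and Ltbp4 in further ones, 10 and 9 of 21), and the cause was not tested. Signal over background limits what can be said of the 31 and 105 probes not above background at one age.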
